A study of Mus musculus with 24 samples.

Results

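The genes of the voltage-gated sodium and calcium channels were followed in brain tissue of mice 5 days after traumatic brain injury (TBI). Members were all rows whose symbol starts with Cacn, or with Scn, a number and a or b, without antisense rows, and whose mean over the 24 libraries was at least 0.5 TPM (transcripts per 1000000, a unit that corrects for gene length and gives every library the same sum). This gave 36 of the 36333 genes listed, 11 of the sodium channel and 25 of the calcium channel, and 17267 genes in all reached that mean. A further 4 symbols fitted the names but not the level. The highest of these, Scn10a, had a mean of 0.171 TPM, while the lowest members were Cacna1s with 0.685 and Cacng1 with 0.776 TPM. Male mice aged 12 to 16 weeks (strain given in the labels as C57BL6N, while the methods name C57BL/6JRj and a narrower age range) received a controlled cortical impact (CCI), in which a piston strikes the exposed cortex, and were then given PLX3397, Anakinra, both (the PLX3397+Anakinra group) or vehicle, with 5 mice in each group. PLX3397, which inhibits the receptor kinase CSF1R on which microglia depend, was given in food at 290 mg/kg from 90 min after CCI. Anakinra, an antagonist of the interleukin-1 receptor IL1R1, was injected subcutaneously at 100 mg/kg after 5 min, 24 h, 48 h and 72 h. Per the study's methods, mice without a drug had control food and saline in its place, also the further 4 mice that were sham-operated, without craniotomy, so that differences from sham include the opening of the skull as well as the impact. Tissue at and around the lesion was taken. The labels call it cortex, while the methods describe sections that also hold striatum, thalamus and dorsal hippocampus (Bregma 0.64 to -2.86 mm), and the striatal and thalamic markers were detected in every group.

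Voltage-gated sodium channels (Nav) open during depolarization and carry the upstroke of the action potential. Their pore is a single large alpha subunit, and small beta subunits with an immunoglobulin domain tune gating and anchor the channel at the axon initial segment and the nodes of Ranvier. Voltage-gated calcium channels (Cav) turn depolarization into calcium entry, which triggers transmitter release (P/Q, N and R type), gene expression and dendritic signals (L type) or rhythmic bursting (T type). Their pore-forming alpha1 subunit is joined by an extracellular alpha2delta and a cytosolic beta subunit that bring it to the membrane. Most genes named as calcium channel gamma subunits encode transmembrane AMPA receptor regulatory proteins, which traffic and gate glutamate receptors.

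Each library summed to 1000000 TPM, and 22160 to 23249 genes were above 0. Read counts were not given, so that the depth behind each value is unknown and precision rests on the spread between mice. Only the vehicle mice carry the letter B in their labels, and if it marks a batch, this cannot be told apart from the vehicle treatment. Differences are on the log2(TPM + 1) scale and come from 1 limma model with a mean for each group. A gene was called where the Benjamini-Hochberg adjusted p over the 17267 genes was below 0.05. Over the 5 groups, limma's F-test called 23 of the 36 members (63.9%), beside 51.9% of all genes tested.

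Promoter sequence was read for Scn1a, Scn8a and Cacng2, which were among the members with the smallest adjusted p between vehicle and sham and all lower after TBI, to show the start regions of genes that moved in the same direction. Shown are the 250 bases before the most upstream start listed by RefSeq (GRCm38.p6), 5′ to 3′ on the strand of the gene, with every CG dinucleotide in capitals. The windows lie at chr2:66440838-66441087 (minus strand), chr15:100870395-100870644 (plus strand) and chr15:78119281-78119530 (minus strand). That of Scn1a lies directly before the annotated gene, and the others inside theirs (Scn8a chr15:100869863-101045938, Cacng2 chr15:77991919-78120220).
Scn1a: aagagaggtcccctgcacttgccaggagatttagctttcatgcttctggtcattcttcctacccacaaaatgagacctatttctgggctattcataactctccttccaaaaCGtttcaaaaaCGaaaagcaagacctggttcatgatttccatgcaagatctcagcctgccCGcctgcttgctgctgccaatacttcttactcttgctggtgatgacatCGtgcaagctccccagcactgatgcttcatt
Scn8a: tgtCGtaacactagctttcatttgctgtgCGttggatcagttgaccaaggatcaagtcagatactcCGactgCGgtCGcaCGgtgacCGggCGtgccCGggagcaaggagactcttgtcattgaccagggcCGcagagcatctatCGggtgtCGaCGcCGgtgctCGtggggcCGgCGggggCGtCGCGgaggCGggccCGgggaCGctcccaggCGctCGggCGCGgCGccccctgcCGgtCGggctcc
Cacng2: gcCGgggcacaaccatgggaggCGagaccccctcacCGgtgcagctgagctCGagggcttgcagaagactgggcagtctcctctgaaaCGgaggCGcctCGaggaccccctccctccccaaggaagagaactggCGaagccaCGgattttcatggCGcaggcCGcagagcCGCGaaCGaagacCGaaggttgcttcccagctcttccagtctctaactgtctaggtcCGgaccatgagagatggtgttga

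The letters CG occurred 4 times before Scn1a, 30 times before Scn8a and 16 times before Cacng2. Over the 32851 windows of all genes the median was 6, and 92.1% of them held at least 1 CG. A window was listed for 26 of the 36 members and not, among others, for Cacna1a, Cacna1g, Cacna1h, Cacna2d4, Cacng1, Cacng4, Scn3a and Scn3b. Among these 26 the CG count ranged from 0 (Cacng8) to 37 (Cacnb4), with a median of 9. It ranged from 0 to 37 (median 16) in the 17 that were called lower in vehicle versus sham and from 2 to 34 (median 5) in the 8 that were not called. The GC box letters GGGCGG, on either strand, stood before 11 of the 26 (42.3%), beside 32.7% of all windows. They stood before 7 of the 17 called lower and 3 of the 8 not called. For each member only the most upstream window was counted, while the values for all genes cover every window listed. None of the windows printed held the GC box letters. These matches describe the letters only.

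Of the 6 pore-forming sodium channel (Nav alpha) genes, Scn1a, Scn2a1 and Scn8a were called lower in vehicle versus sham, and Scn3a and Scn9a were not called. Over the whole set, 22 of 36 members were called lower and 1 higher in this comparison, beside 27.7% lower and 26.6% higher among all genes tested. The median log2 difference was -0.39 for the members and -0.01 for all genes. Of 12 neuron markers, 11 were called lower too, and 13 of the 22 members, Scn2a1 among them, changed sign when expressed relative to these markers. Such a change of sign means that a gene fell less than the mean of the markers. It was not particular to the members, since 85.3% of all genes were called higher on that scale. The median there was 0.51 for all genes and 0.13 for the members. In bulk tissue, fewer neurons and less channel RNA per neuron cannot be told apart.

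Scn1a, which encodes the channel Nav1.1 of fast-spiking interneurons and axon initial segments, measured 102, 107, 108 and 108 TPM in the 4 sham mice and 63.5, 77.5, 55.3, 59.2 and 57.5 TPM in the 5 vehicle mice. Values were 72.3, 72.9, 66.5, 76.2 and 78.2 TPM with PLX3397, 56.9, 60.6, 63.7, 60.4 and 68.6 TPM with Anakinra and 71.6, 79.7, 69.02, 72.7 and 80.9 TPM with PLX3397+Anakinra. Every mouse with TBI was below every sham mouse, and the vehicle mouse J17B was above the other vehicle mice. The log2 difference from sham was -0.76 ± 0.07 (SE) for vehicle (adjusted p = 3.52e-09), -0.53 for PLX3397, -0.77 for Anakinra and -0.50 for PLX3397+Anakinra (adjusted p = 2.08e-06, 3.59e-09 and 6.63e-06, limma).

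Scn8a encodes Nav1.6, the main channel of mature nodes of Ranvier. It stood at 121, 108, 112 and 116 TPM in sham mice and at 75.3, 77.7, 69.1, 69.1 and 71.6 TPM in vehicle mice. It stood at 84.5, 71.6, 78.8, 67.9 and 70.1 TPM with PLX3397, at 67.5, 69.4, 75.97, 63.2 and 76.2 TPM with Anakinra and at 75.05, 73.04, 86.2, 80.4 and 86.5 TPM with PLX3397+Anakinra. No mouse with TBI reached the sham range, and the 4 TBI groups overlapped. Scn8a fell by 0.65 log2 units in vehicle (-0.65 ± 0.07, adjusted p = 1.08e-08), and its differences from sham were -0.61 with PLX3397, -0.69 with Anakinra and -0.51 with PLX3397+Anakinra, all called.

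Scn2a1, the files' symbol for the Nav1.2 gene Scn2a of excitatory neurons, was the most abundant Nav alpha gene. Sham mice had 131, 138, 154 and 143 TPM, and vehicle mice 109, 119.8, 93.7, 90.3 and 100.1 TPM. PLX3397 mice had 123, 97.9, 106, 123 and 111 TPM, Anakinra mice 85.1, 96.7, 108, 95.1 and 109 TPM and PLX3397+Anakinra mice 107, 112, 109.9, 109 and 127 TPM. The sham mice were above all others, by a narrower gap than for Scn1a. The log2 difference was -0.46 ± 0.08 in vehicle (adjusted p = 4.24e-05) and -0.34, -0.52 and -0.32 in the PLX3397, Anakinra and PLX3397+Anakinra groups, each called.

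Scn3a, the Nav1.3 gene best known from the developing brain, had 20.3 ± 1.64 TPM (SD, n = 4) in sham and 17.6 ± 2.65 TPM (n = 5) in vehicle mice. Its difference of -0.20 was not called in vehicle (adjusted p = 0.062, 95% confidence interval -0.39 to -0.02), while that of -0.25 in Anakinra was (adjusted p = 0.0213), and was lost without Anakinra mouse J05 or sham mouse J15 (largest adjusted p 0.0888). The direct comparison of Anakinra with vehicle was not called for Scn3a (smallest adjusted p of any member 0.226, limma). The nociceptor channel gene Scn9a (Nav1.7) was low, with group means of 1.44 to 1.81 TPM. It was not called in any comparison, nor was Scn7a, the gene of the sodium-sensing channel Nax, at 1.85 to 2.22 TPM.

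The sodium channel beta subunit genes Scn2b, Scn3b and Scn4b were called lower in vehicle versus sham in TPM. They fell less than the mean of the neuron markers, so that relative to these they lay above 0. On that scale 85.3% of all genes were called higher, with a median of 0.51 for all genes. Scn2b, whose product is bound to the alpha subunit by a disulfide bridge, stood at 244, 237, 237 and 242 TPM in sham and at 205, 199, 177, 167 and 167 TPM in vehicle mice. It measured 218, 173, 199, 184 and 185 TPM with PLX3397, 175, 182, 183, 163 and 187 TPM with Anakinra and 198, 186, 223, 213 and 213 TPM with PLX3397+Anakinra. Sham mice were above all mice with TBI, and the highest values after TBI belonged to the PLX3397+Anakinra mouse J09 and the PLX3397 mouse J01. The difference was -0.39 ± 0.07 in vehicle (adjusted p = 2.11e-05) and -0.22 in PLX3397+Anakinra (adjusted p = 0.0117). Scn3b fell by 0.33 in vehicle, from 96.6 ± 8.23 to 76.6 ± 7.69 TPM. Scn4b, a gene of striatal and fast-firing neurons linked to resurgent sodium current, had 330.0 ± 17.4 TPM in sham and 274 ± 49.99 TPM in vehicle mice. Its call (log2 -0.28, adjusted p = 0.0461) was lost without any of 12 mice in turn, namely any sham mouse, vehicle mouse J18B or J19B, PLX3397 mouse J12 or J19, Anakinra mouse J05 or J06, or PLX3397+Anakinra mouse J03 or J09 (largest adjusted p 0.153). With PLX3397+Anakinra, Scn3b and Scn4b were not called against sham (-0.14 and -0.01, confidence intervals -0.30 to 0.02 and -0.26 to 0.23). Neither gene was called when PLX3397+Anakinra was compared directly with vehicle, and Scn4b was not called in PLX3397 versus sham either.

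**Figure D1:**
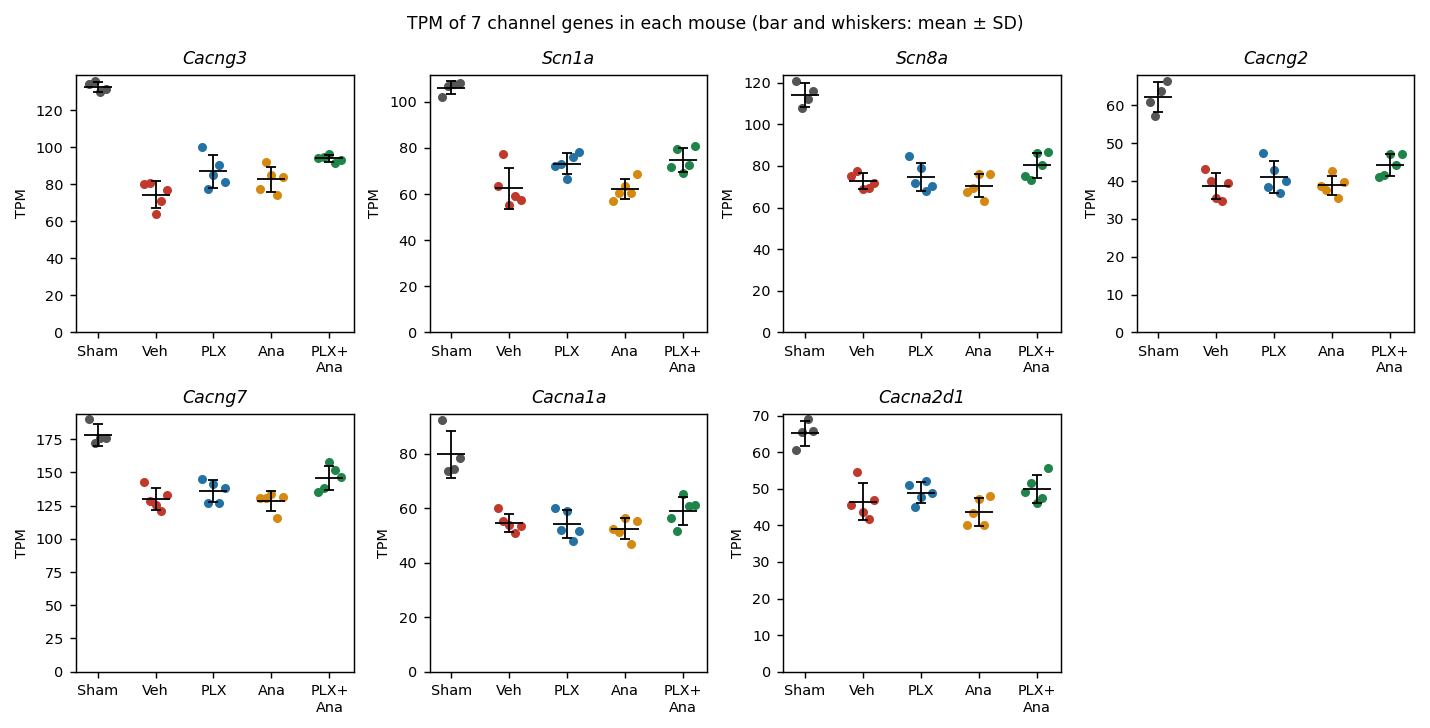
TPM of 7 members with small adjusted p between vehicle and sham, 1 point per mouse, in 5 groups, with bars and whiskers for mean ± SD and axes from 0. The sham mice sit above all mice with TBI in each panel, with Cacng3 at 129.8 to 136 TPM in sham and 63.8 to 80.8 TPM in vehicle mice.

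The presynaptic calcium channel genes Cacna1a (P/Q type, Cav2.1) and Cacna1b (N type, Cav2.2) were lower after TBI in each TBI group, and all 3 T type genes were too, although relative to neuron markers Cacna1b changed sign in vehicle, Cacna1h in vehicle, Anakinra and PLX3397+Anakinra, and Cacna1g in Anakinra and PLX3397+Anakinra. On that scale 85.3%, 85.3% and 73.9% of all genes were called higher against sham in vehicle, Anakinra and PLX3397+Anakinra. The call of Cacna1h in PLX3397+Anakinra was lost without PLX3397+Anakinra mouse J04 or sham mouse J07 (largest adjusted p 0.0698). Cacna1a measured 92.4, 73.6, 74.6 and 78.5 TPM in sham and 59.96, 55.2, 53.8, 50.8 and 53.6 TPM in vehicle mice. Drug-treated mice had 60.3, 52.04, 59.1, 47.98 and 51.5 TPM (PLX3397), 52.4, 51.4, 56.5, 46.8 and 55.5 TPM (Anakinra) and 56.4, 51.8, 65.2, 60.95 and 61.2 TPM (PLX3397+Anakinra). The sham mouse J07 was well above the other sham mice, and the sham range did not overlap with any TBI group. The log2 difference was -0.53 ± 0.08 in vehicle (adjusted p = 2.09e-06) and -0.55, -0.59 and -0.42 with PLX3397, Anakinra and PLX3397+Anakinra. Cacna1b fell by 0.46 in vehicle, from 49.8 ± 2.14 to 35.9 ± 2.52 TPM. Cacna1e, the R type gene, was at 41.3 ± 3.65 TPM in sham and 35.97 ± 4.33 TPM in vehicle mice, and was called against sham only with Anakinra among the 4 TBI groups (-0.33, adjusted p = 0.00359). The direct comparison of Anakinra with vehicle was not called for Cacna1e (-0.14, adjusted p = 0.536).

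T type channels open near the resting potential and sustain thalamic and cortical bursting. Cacna1g (Cav3.1) went from 52.3 ± 3.27 TPM in sham to 34.9 ± 4.78 TPM in vehicle mice, Cacna1h (Cav3.2) from 37.6 ± 2.66 to 28.6 ± 4.12 TPM and Cacna1i (Cav3.3) from 53.1 ± 5.35 to 35.6 ± 2.46 TPM. The log2 differences were -0.58, -0.39 and -0.56 (adjusted p = 3.6e-05, 0.0012 and 1.8e-05), and none of the vehicle mice reached the sham range of these genes.

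None of the 3 L type genes was called in vehicle versus sham. Cacna1c (Cav1.2), a route of calcium to the nucleus, had 27.1 ± 2.14 TPM in sham and 23.8 ± 1.68 TPM in vehicle mice, a difference of -0.18 (confidence interval -0.37 to 0.01). Cacna1d (Cav1.3), a pacemaking channel, had 22.1 ± 1.04 and 19.98 ± 0.708 TPM, and its groups did not overlap although the difference of -0.14 was not called (adjusted p = 0.0905). Against the same sham mice, Cacna1d was called with PLX3397 (-0.28), Anakinra (-0.27) and PLX3397+Anakinra (-0.23), and Cacna1c with PLX3397 (-0.27) and Anakinra (-0.23). Relative to neuron markers all of these changed sign, to 0.10, 0.25 and 0.11 for Cacna1d and to 0.11 and 0.30 for Cacna1c, and the values with Anakinra were called higher (adjusted p = 0.000929 and 0.00257). On that scale 85.3% of all genes were called higher in Anakinra versus sham. Compared directly with vehicle in TPM, no L type gene was called with PLX3397, Anakinra or PLX3397+Anakinra (smallest adjusted p 0.207, 0.405 and 0.406, limma). The Cacna1c call with PLX3397 was lost without PLX3397 mouse J19 or J20 or sham mouse J07 or J15 (largest adjusted p 0.0607), and the call with Anakinra without Anakinra mouse J05, J06, J14 or J21 or sham mouse J07, J15 or J16 (largest adjusted p 0.112). Cacna1s, the skeletal muscle gene, had group means of 0.586 to 0.794 TPM and was not called.

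Of the auxiliary calcium channel genes, Cacna2d1, Cacna2d3 and the 4 beta subunit genes were called lower in vehicle versus sham, and all of these but Cacnb3 changed sign relative to neuron markers. On that scale 85.3% of all genes were called higher in this comparison. Cacna2d1, the gene of the alpha2delta protein that binds gabapentin, measured 60.7, 65.4, 69.05 and 65.7 TPM in sham mice and 45.6, 54.7, 43.6, 41.8 and 46.9 TPM in vehicle mice. It measured 50.99, 44.99, 47.9, 52.1 and 48.9 TPM with PLX3397, 40.1, 43.4, 47.3, 40.1 and 48.1 TPM with Anakinra and 49.1, 51.7, 46.02, 47.6 and 55.7 TPM with PLX3397+Anakinra. All sham mice were above all mice with TBI, and the TBI groups overlapped. The log2 difference was -0.48 ± 0.07 in vehicle (adjusted p = 2.93e-06), -0.41 with PLX3397, -0.57 with Anakinra and -0.38 with PLX3397+Anakinra, each called.

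Cacna2d3, the most abundant alpha2delta gene, had 112, 116, 118 and 119.9 TPM in sham and 99.7, 99.2, 79.8, 74.98 and 88.8 TPM in vehicle mice. Values were 102, 83.1, 92.3, 101 and 94.3 TPM with PLX3397, 79.2, 91.5, 98.1, 81.4 and 89.2 TPM with Anakinra and 92.3, 102, 103, 105 and 108 TPM with PLX3397+Anakinra. The vehicle mice were spread widely, with J01B and J17B near the lower PLX3397+Anakinra mice, and none reached the sham range. The difference was -0.40 ± 0.08 in vehicle (adjusted p = 9.48e-05) and -0.19 in PLX3397+Anakinra, which was not called although its groups did not overlap (adjusted p = 0.0515). Cacna2d2 had 46.2 ± 3.01 TPM in sham and 43.4 ± 7.03 TPM in vehicle mice and was not called. Cacna2d4, known from photoreceptors, was at 2.31 to 3.23 TPM and was called higher with Anakinra (0.29, adjusted p = 0.0444), a call that was lost without Anakinra mouse J05 or J22, sham mouse J07, J08 or J15, or vehicle mouse J20B (largest adjusted p 0.171).

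The beta subunits bind the alpha1 subunit inside the cell and release it from the endoplasmic reticulum. Cacnb1 measured 118, 106, 102 and 107 TPM in sham, 82.4, 81.04, 70.7, 68.7 and 74.4 TPM in vehicle and 93.9, 69.00, 91.5, 69.6 and 78.5 TPM in PLX3397 mice. With Anakinra it measured 75.2, 79.1, 84.5, 73.9 and 83.8 TPM and with PLX3397+Anakinra 83.7, 83.1, 95.7, 88.5 and 90.1 TPM. Sham mice were above all others, and the lowest PLX3397+Anakinra mouse was above the highest vehicle mouse. Its log2 difference from sham was -0.52 ± 0.08 in vehicle (adjusted p = 5.01e-06) and -0.30 in PLX3397+Anakinra (adjusted p = 0.00436).

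Cacnb2, which slows inactivation of the channels it joins, measured 32.5, 30.8, 31.9 and 34.3 TPM in sham and 25.4, 28.2, 21.9, 21.9 and 24.9 TPM in vehicle mice. The PLX3397 mice had 28.97, 25.3, 26.4, 30.1 and 28.5 TPM, the Anakinra mice 22.99, 24.2, 27.5, 23.4 and 28.8 TPM and the PLX3397+Anakinra mice 27.3, 29.2, 29.9, 28.3 and 31.2 TPM. Sham and PLX3397+Anakinra overlapped at the PLX3397+Anakinra mouse J17, while sham and vehicle did not overlap. The difference was -0.39 ± 0.07 in vehicle (adjusted p = 6.9e-05), and in PLX3397+Anakinra it was -0.15 and not called (adjusted p = 0.125).

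Cacnb3 was the most abundant beta subunit gene, with 158, 144, 128 and 137 TPM in sham and 106, 96.6, 88.9, 93.5 and 99.6 TPM in vehicle mice. PLX3397 mice had 122, 94.4, 118, 90.3 and 97.6 TPM, Anakinra mice 102, 107, 105, 84.1 and 101 TPM and PLX3397+Anakinra mice 109, 103, 124, 119.9 and 116 TPM. No mouse with TBI reached the sham range, and the Anakinra mouse J21 was the lowest of the 24. The difference was -0.54 ± 0.08 in vehicle (adjusted p = 6.76e-06) and -0.30 in PLX3397+Anakinra (adjusted p = 0.00588). Cacnb4 fell from 101 ± 3.34 to 71.6 ± 10.8 TPM in vehicle, by 0.50 on the log2 scale.

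The gamma genes encode both muscle-type channel subunits and AMPA receptor-associated proteins. Cacng1, a subunit of the muscle channel, and Cacng6 had group means of 0.673 to 0.948 and 0.854 to 1.27 TPM and were not called. Among the 6 AMPA receptor-associated genes, Cacng2, Cacng3, Cacng7 and Cacng8 were called lower in vehicle versus sham (Cacng7 and Cacng8 with the opposite sign relative to neuron markers), Cacng5 was called higher, and Cacng4 was at 38.5 ± 3.39 TPM in sham and 37.9 ± 4.92 TPM in vehicle mice.

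Cacng3 had the largest log2 difference of all members between vehicle and sham. Sham mice measured 134, 136, 129.8 and 132 TPM and vehicle mice 79.98, 80.8, 63.8, 70.9 and 76.8 TPM. Values were 100.4, 77.5, 85.2, 90.6 and 81.4 TPM with PLX3397, 77.5, 91.9, 85.3, 74.4 and 84.01 TPM with Anakinra and 94.1, 95.03, 96.3, 91.8 and 93.1 TPM with PLX3397+Anakinra. Sham mice were far above all mice with TBI, and each PLX3397+Anakinra mouse was above each vehicle mouse. The difference from sham was -0.83 ± 0.07 in vehicle (adjusted p = 2.29e-10), -0.61 with PLX3397, -0.68 with Anakinra and -0.49 with PLX3397+Anakinra.

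Cacng2, whose product stargazin carries AMPA receptors to the synapse, measured 60.9, 57.3, 63.9 and 66.6 TPM in sham and 43.3, 39.97, 35.5, 34.8 and 39.6 TPM in vehicle mice. It measured 47.4, 38.5, 42.8, 36.8 and 40.00 TPM with PLX3397, 38.8, 37.6, 42.6, 35.5 and 39.7 TPM with Anakinra and 41.1, 41.7, 47.2, 44.3 and 47.2 TPM with PLX3397+Anakinra. The sham range was separate from that of each TBI group. The difference was -0.68 ± 0.07 in vehicle (adjusted p = 1.95e-08) and -0.48 in PLX3397+Anakinra (adjusted p = 8.91e-06).

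Cacng7, the most abundant gene of this class, stood at 190.4, 172, 176 and 176 TPM in sham and 143, 129, 125, 121 and 133 TPM in vehicle mice. PLX3397 mice had 145, 127, 142, 127 and 139 TPM, Anakinra mice 131, 131, 134, 116 and 132 TPM and PLX3397+Anakinra mice 136, 138, 158, 152 and 147 TPM. All mice with TBI were below the sham mice, and every PLX3397+Anakinra mouse was above every Anakinra mouse. The difference from sham was -0.45 ± 0.06 in vehicle (adjusted p = 2.16e-07) and -0.29 in PLX3397+Anakinra (adjusted p = 0.000198).

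Cacng8, the hippocampus-rich gamma-8 gene, measured 120.5, 108, 109 and 111 TPM in sham and 86.7, 90.4, 83.99, 84.3 and 93.9 TPM in vehicle mice. PLX3397 mice had 101, 99.95, 88.03, 89.3 and 80.6 TPM, Anakinra mice 81.01, 88.6, 93.7, 78.3 and 81.6 TPM and PLX3397+Anakinra mice 106, 98.4, 121, 105 and 105 TPM. Vehicle, PLX3397 and Anakinra mice were all below the sham mice, while the PLX3397+Anakinra range overlapped with sham and its mouse J09 was the highest of all. The difference from sham was -0.35 ± 0.07 in vehicle (adjusted p = 7.78e-05), and -0.07 in PLX3397+Anakinra, not called (adjusted p = 0.439, confidence interval -0.20 to 0.07). Cacng5, singled out after its values were seen as the only member called higher in vehicle versus sham, measured 15.1, 12.6, 15.8 and 14.8 TPM in sham and 18.98, 18.9, 18.4, 15.8 and 17.8 TPM in vehicle mice, which overlapped at sham mouse J15 and vehicle mouse J19B. Its difference of 0.28 (adjusted p = 0.0286) was lost without vehicle mouse J01B, J17B or J18B or sham mouse J08 (largest adjusted p 0.116).

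**Figure D2:**
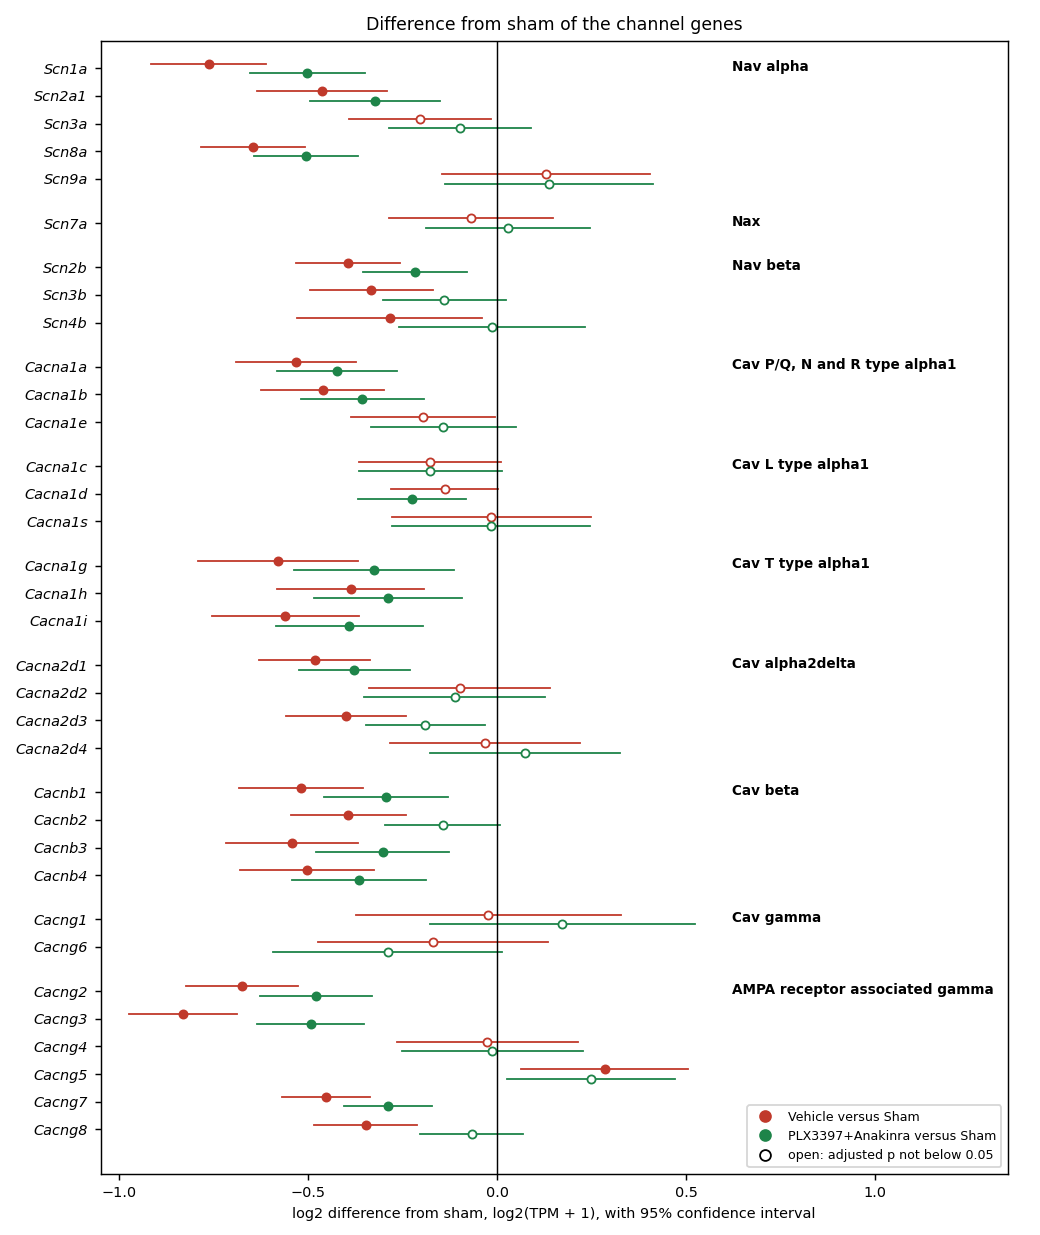
Log2 difference from sham of the members by class, for vehicle (red) and PLX3397+Anakinra (green) mice, with 95% confidence intervals from the model on the horizontal axis and filled points where the gene was called. Vehicle points reach from -0.83 (Cacng3) to 0.28 (Cacng5), and the L type and Cav gamma classes hold no filled vehicle point. Relative to neuron markers, 13 of the filled vehicle points below 0 changed sign, on a scale where 85.3% of all genes were called higher.

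The 4 comparisons with sham share the 4 sham mice. With PLX3397, 23 members were called lower and 0 higher (all genes: 22.5% and 22.7%), with a median difference of -0.30. With Anakinra, 26 were called lower and 1 higher (all genes: 29.2% and 25.1%; median -0.40), and with PLX3397+Anakinra 18 and 0 (all genes: 18.1% and 20.7%; median -0.22). Of the 36 members, 21 in vehicle, 21 in PLX3397, 23 in Anakinra and 18 in PLX3397+Anakinra had every mouse below every sham mouse, beside 21%, 17.6%, 23.6% and 14% of all genes. No member differed from sham by the criteria of the study (unadjusted p below 0.05, ratio of means above 2, difference above 4 TPM), since none reached a ratio of 2.

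Summed over the class, Nav alpha transcripts amounted to 387 ± 12.97 TPM in sham, 260.4 ± 27.8 in vehicle, 284 ± 16.6 in PLX3397, 252 ± 21.2 in Anakinra and 292 ± 17.1 in PLX3397+Anakinra mice. The shares of its genes are given as a description, without a test. Scn3a contributed 5.25% ± 0.263 in sham mice and 6.74% ± 0.4 in vehicle mice, with all values of the TBI groups (6.18% to 7.17%) above all of sham (5.03% to 5.63%). In TPM Scn3a itself did not rise (20.3 in sham and 17.6 in vehicle mice, not called), while Scn1a, Scn2a1 and Scn8a were called lower. How often shares of other genes separated in this way was not counted. Scn1a contributed 27.5% ± 0.762 in sham and 23.98% ± 1.25 in vehicle mice, Scn2a1 36.6% ± 1.49 and 39.4% ± 0.749, and Scn8a 29.6% ± 1.81 and 27.98% ± 1.44.

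The Cav alpha1 sum was 364 ± 22 TPM in sham, 270.1 ± 20.6 in vehicle and 291 ± 26.7 in PLX3397+Anakinra mice, and the Cav beta sum 384 ± 15.8, 268 ± 22.1 and 310.3 ± 13.9 TPM. Within the Cav alpha1 sum the L type gene Cacna1d held 6.1% ± 0.418 in sham and 7.42% ± 0.328 in vehicle mice, and Cacna1a held 21.9% ± 1.24 and 20.3% ± 0.344. In the AMPA receptor-associated class, Cacng3 went from 24.7% ± 0.955 to 19.2% ± 0.944, and Cacng5 from 2.71% ± 0.225 to 4.65% ± 0.303.

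**Figure D3:**
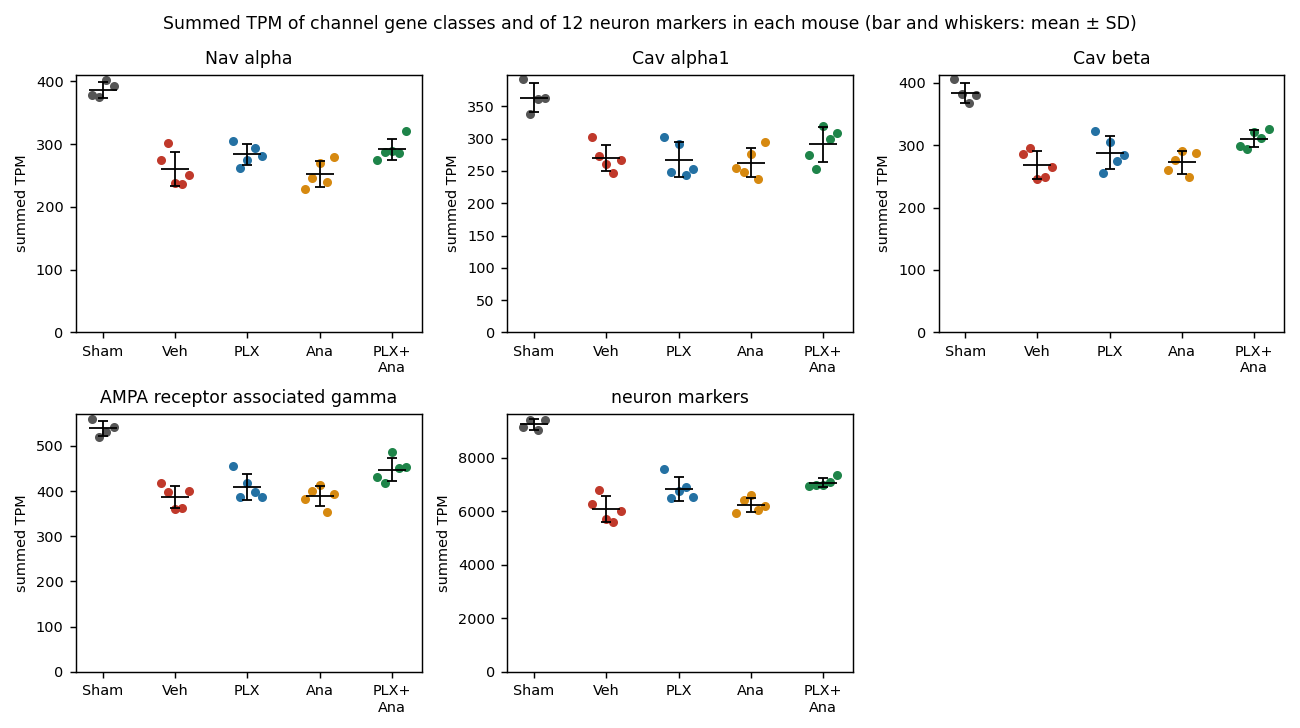
Summed TPM of 4 member classes and of 12 neuron markers, 1 point per mouse in 5 groups, with bars and whiskers for mean ± SD and axes from 0. In every panel the sham mice lie above the mice with TBI, for the neuron markers at 9035 to 9424 TPM beside 5602 to 6796 TPM in vehicle mice.

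Neuron markers moved with the members. Of 12 (Rbfox3, Snap25, Syt1, Map2, Nefl, Nefm, Eno2, Thy1, Slc17a7, Gad1, Gad2 and Stmn2), 11 were called lower in each TBI group versus sham, and none was at 0. Their sum ranged over 9035 to 9424 TPM in sham, 5602 to 6796 in vehicle, 6476 to 7591 in PLX3397, 5941 to 6595 in Anakinra and 6938 to 7351 in PLX3397+Anakinra mice, and the mean of their log2 values was below sham by 0.53 in vehicle, 0.38 in PLX3397, 0.53 in Anakinra and 0.34 in PLX3397+Anakinra. All 6 striatal markers were without a call in vehicle versus sham, whereas 3 of 5 thalamic, 2 of 5 hippocampal and 4 of 5 interneuron markers were called lower (all genes: 27.7%). These lists are short, and the interneuron list shares Gad1 and Gad2 with the 12 neuron markers. The sum of 6 microglial markers was 299.6 to 315 TPM in sham, 1154 to 1479 in vehicle, 488 to 749 in PLX3397, 1249 to 1423 in Anakinra and 447 to 596 in PLX3397+Anakinra mice, and that of 5 astrocyte markers 1159.8 to 1268, 3058 to 4125, 3026 to 3447, 2871 to 3281 and 3058 to 3476 TPM. Their part in the members' differences was not tested.

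When every gene was expressed relative to the mean of the 12 neuron markers in the same library, 4 members were called lower and 20 higher in vehicle versus sham (all genes: 1.32% and 85.3%, with a median of 0.51 for all genes and 0.13 for the members). The 4 were Cacng3 (-0.31 ± 0.05 (SE), adjusted p = 4.65e-06), Scn1a (-0.24 ± 0.07, adjusted p = 0.00189), Cacng2 (-0.15 ± 0.06, adjusted p = 0.0169) and Scn8a (-0.12 ± 0.05, adjusted p = 0.0377). Members such as Cacna1a (-0.01), Cacnb1 (0.01), Cacnb4 (0.02) and Scn2a1 (0.06) then lay near 0, and the 13 members that changed sign were Cacna1b, Cacna1h, Cacna2d1, Cacna2d3, Cacnb1, Cacnb2, Cacnb4, Cacng7, Cacng8, Scn2a1, Scn2b, Scn3b and Scn4b. The L type genes Cacna1c (0.35) and Cacna1d (0.39) and the AMPA receptor-associated genes Cacng4 (0.50) and Cacng5 (0.81) were among the 20 higher ones. Against the same sham mice, members called lower on this scale numbered 7 with PLX3397, 4 with Anakinra and 4 with PLX3397+Anakinra (all genes: 1.63%, 0.811% and 1.01%), and those called higher 13, 17 and 17 (all genes: 75.9%, 85.3% and 73.9%). With Anakinra the lower ones were Cacng2 (-0.14), Cacng3 (-0.16), Scn1a (-0.24) and Scn8a (-0.17). With PLX3397+Anakinra they were Cacng2 (-0.14), Cacng3 (-0.16), Scn1a (-0.16) and Scn8a (-0.17).

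**Figure D4:**
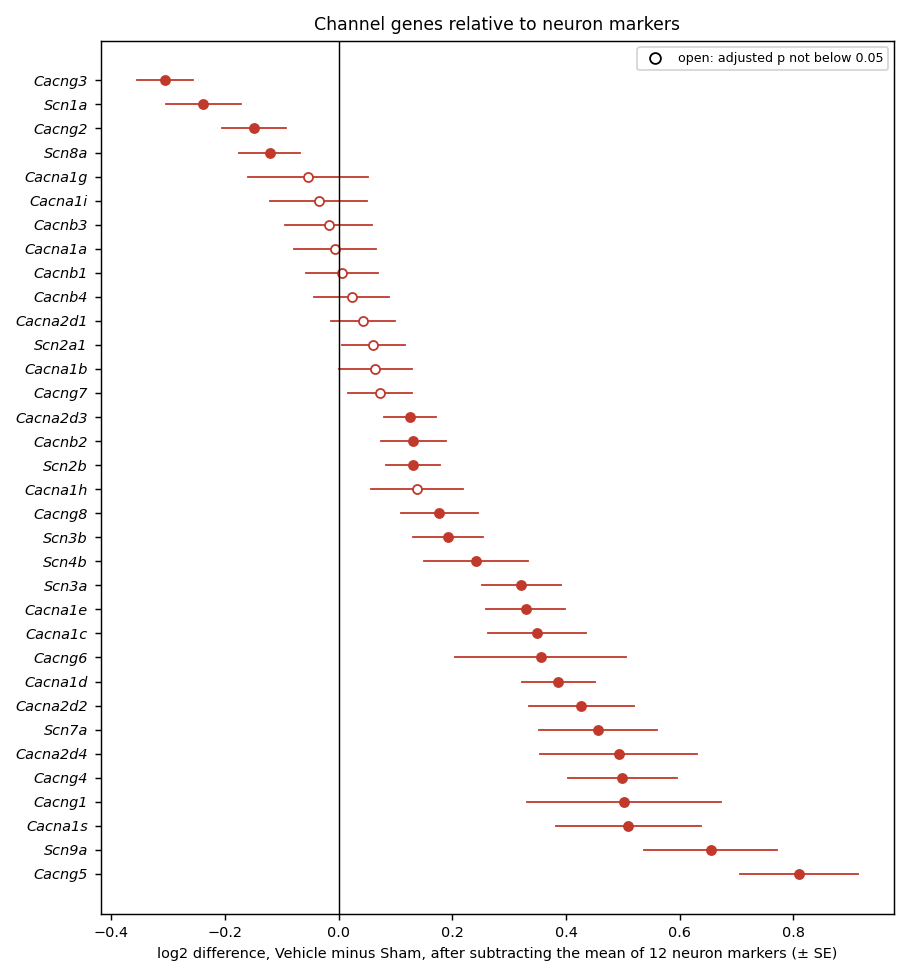
Log2 difference between vehicle and sham of each member after subtraction of the mean of 12 neuron markers, with bars for ± SE and filled points where the gene was called. From Cacng3 at -0.31 the members extend to Cacng5 at 0.81.

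The partners of the channels were read from lists chosen for this purpose. Of 16 genes listed as sodium channel partners, 14 were called lower in vehicle versus sham and 0 higher (all genes: 27.7% and 26.6%), with a median of -0.38. The list also holds Nalcn, the gene of a sodium leak channel, and Unc79, Unc80 and Fam155a, which belong to that channel and not to Nav. The smallest adjusted p-values belonged to Fgf13, which binds the channel's C-terminus (-0.65, adjusted p = 1.22e-09), and Cntnap1, the paranodal protein Caspr (-0.67, adjusted p = 4.35e-08). The 2 without a call, named after their values were seen, were the cell adhesion gene Nfasc (0.06) and Fgf11 (-0.06). Of 22 genes of calcium channel partners and calcium handling, 14 were called lower and 2 higher (median -0.41), and of 8 AMPA receptor genes and other auxiliary subunits 6 and 0 (median -0.35), against the same shares of all genes. The median of the 12 neuron markers was -0.58 in this comparison, and the partner lists were not read relative to these markers. Among the calcium channel partners, Camk2a (-0.79) and Rims1, a scaffold of the release site (-0.83), led those that fell, and the 2 that rose were Gem (1.21, adjusted p = 1.11e-09) and Rrad (1.00, adjusted p = 2.92e-06), small GTPases that bind the beta subunits and restrain calcium channels. Among the AMPA receptor genes, Cnih3 (-0.71) and Gria3 (-0.51) led.

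Among mice with TBI, the question was whether the drugs changed the channel genes. PLX3397+Anakinra mice had higher levels than vehicle mice in 10 members, and PLX3397 mice in 2. In PLX3397+Anakinra versus vehicle, 10 of 36 members were called higher and 0 lower (all genes: 7.88% higher, 9.6% lower), with a median of 0.14. Among them were Scn1a, Cacna2d3, Cacnb1, Cacnb2 and Cacnb3, and Cacng2, Cacng3, Cacng7 and Cacng8. The largest difference was that of Cacng3 (0.34 ± 0.06, adjusted p = 0.000521), followed by Cacng8 (0.28 ± 0.06, adjusted p = 0.0022), Scn1a (0.26 ± 0.07, adjusted p = 0.0101) and Cacnb2 (0.25 ± 0.07, adjusted p = 0.0136). Smaller differences were those of Cacnb3 (0.24), Cacnb1 (0.22), Cacna2d3 (0.21), Cacng2 (0.19) and Cacng7 (0.16), with adjusted p from 0.0333 to 0.0483. In 4 of the 10, including Cacnb1, Cacng3 and Cacng8, every PLX3397+Anakinra mouse was above every vehicle mouse (all genes: 4.09%).

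The count of 10 rested on single mice. It fell to 3 without vehicle mouse J18B or J19B, which were the lowest of their group in 12 and 19 of the 36 members, to 5 without J20B, and to 4, 4 and 5 without PLX3397+Anakinra mice J09, J10 and J17. The calls of Cacng3, Cacng8 and Scn1a were not lost without any single mouse. The calls of Cacnb3, Cacnb1, Cacng7 and Cacnb2 were lost without any of 7, 6, 5 and 2 mice in turn (largest adjusted p 0.112, 0.116, 0.106 and 0.0526, limma). That of Cacna2d3 was lost without any of 15 mice in turn and that of Cacng2 without any of 14 (largest adjusted p 0.167 and 0.149, limma). For Cacna2d3 and Cacng2 these included sham, PLX3397 and Anakinra mice, which lie outside the comparison but share its estimate of the spread. Of the 12 neuron markers, 8 were called higher in this comparison and 0 lower, and relative to these markers 1 member was called higher (Cacng3, 0.15, adjusted p = 0.0155) and 1 lower (Cacna1d, -0.27, adjusted p = 0.00167), beside 0.458% and 38.1% of all genes, and Cacng7 changed sign (-0.02). Among partner genes, 2 of 16 on the sodium channel list were called higher (Cntnap1 0.26, Fgf13 0.18). On the calcium channel list these were 4 of 22 (Rims1, Camk2a, Camk2b and Slc8a2), and on the AMPA receptor list 2 of 8 (Cnih2 and Cnih3), against 7.88% of all genes.

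In PLX3397 versus vehicle, Scn1a (0.23 ± 0.07, adjusted p = 0.0333) and Cacng3 (0.22 ± 0.06, adjusted p = 0.029) were the 2 members called higher and none was lower (all genes: 3.23% higher, 6.66% lower). The vehicle and PLX3397 mice overlapped for both. Neither gene was called without vehicle mouse J18B or J19B or PLX3397 mouse J01 or J19, and 1 of the 2 was called without vehicle mouse J20B or PLX3397 mouse J02 or J20. Of the neuron markers 4 were called higher, and relative to them Cacna1c (-0.24) and Cacna1d (-0.28) were called lower (all genes: 23.4%). No member was called in Anakinra versus vehicle (smallest adjusted p 0.226, 2 members with an unadjusted p below 0.05; all genes: 0.116%). The largest Anakinra difference was that of Cacna2d4 (0.33, confidence interval 0.09 to 0.57), and for Scn1a it was -0.0046 (confidence interval -0.15 to 0.14).

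**Figure D5:**
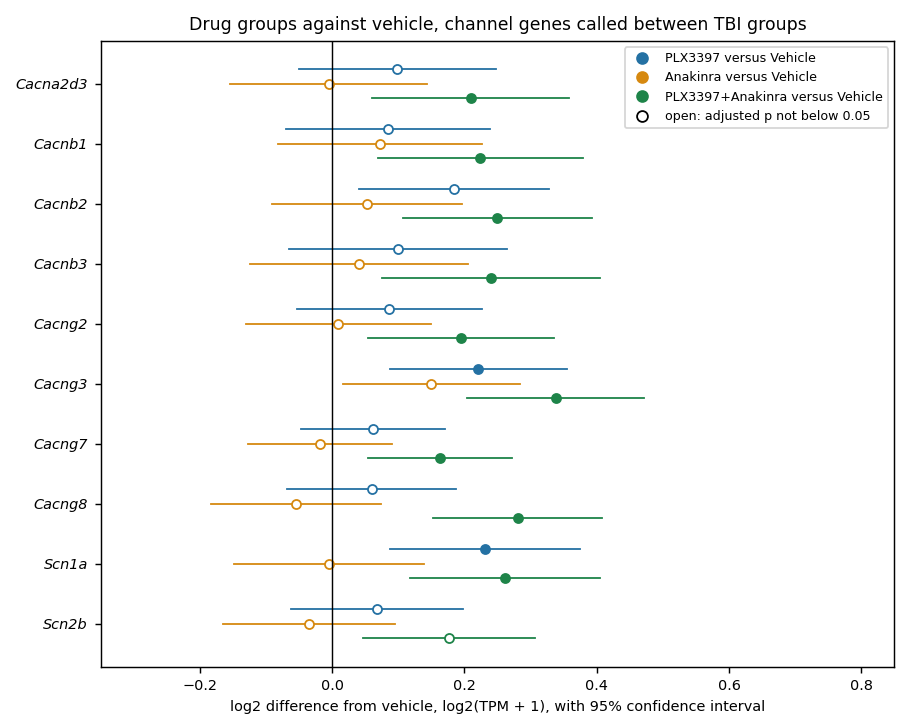
Log2 difference from vehicle of members called in any comparison between TBI groups, for PLX3397 (blue), Anakinra (orange) and PLX3397+Anakinra (green) mice, with 95% confidence intervals from the model and filled points where the gene was called. PLX3397+Anakinra points lie between 0.16 and 0.34, and no Anakinra point is filled.

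Against Anakinra, PLX3397+Anakinra mice had 4 members called higher and 0 lower (all genes: 4.67% higher, 8.1% lower; lower calls made up 63.4% of all calls, and 77% after rescaling by the median ratio). They were Cacng8 (0.33 ± 0.06, adjusted p = 0.000413), Scn1a (0.27 ± 0.07, adjusted p = 0.0115), Scn2b (0.21 ± 0.06, adjusted p = 0.0274) and Cacng7 (0.18 ± 0.05, adjusted p = 0.0237). For Cacng8, Cacng7 and Scn1a every PLX3397+Anakinra mouse was above every Anakinra mouse (all genes: 3.94%), and for Scn2b the groups met at PLX3397+Anakinra mouse J04. The count was 2 without Anakinra mouse J21 or PLX3397+Anakinra mouse J10 or J17, 8 without PLX3397 mouse J01, 9 without Anakinra mouse J14 or J22 and 10 without vehicle mouse J17B. The call of Scn2b was lost without Anakinra mouse J05 or J21 or PLX3397+Anakinra mouse J09, J10 or J17 (largest adjusted p 0.0904), and that of Cacng7 without Anakinra mouse J21 or the same 3 PLX3397+Anakinra mice (largest adjusted p 0.0907). Of the neuron markers 6 were called higher, and relative to them 0 members were called higher and 1 lower (Cacna2d4, -0.41), beside 0.168% higher and 28.4% lower among all genes, and Cacng7 changed sign (-0.01).

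No member was called in PLX3397+Anakinra versus PLX3397 by limma (smallest adjusted p 0.211, 2 members with an unadjusted p below 0.05; all genes: 0.151%), where Cacng8 differed by 0.22 (confidence interval 0.09 to 0.35). The interaction of the drugs, the difference between the effect of adding Anakinra to PLX3397 and that of Anakinra alone, called 0 of 36 members by limma (2 with an unadjusted p below 0.05; 0% of all genes). For Cacna2d4 it was -0.39 ± 0.16 (confidence interval -0.73 to -0.06, adjusted p = 0.556), for Cacng8 0.28 ± 0.09 (confidence interval 0.09 to 0.46, adjusted p = 0.449) and for Cacng3 -0.03 ± 0.09 (adjusted p = 0.938).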

How the data were processed

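Brain RNA of 24 mice, 1 poly-A selected library each, had been sequenced as paired-end reads. The authors mapped the reads to GRCm38 in CLC Genomics Workbench and deposited TPM per gene, without counts. TPM is relative: a change in abundant transcripts moves all others. The members and gene lists used here were chosen with earlier results of these data known.

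The 17267 genes whose mean reached 0.5 TPM were analysed as log2(TPM + 1) with limma 3.58.1, with 1 mean per group, all 24 libraries and an intensity trend in the variance, and adjusted by the Benjamini-Hochberg method. On this scale the change of low genes is understated. The procedure was run on simulated data in which the residuals of each gene were shuffled separately. Such data hold no correlation between genes and no shift of TPM by abundant transcripts, so the effect of these on the calls was not tested. The deposited columns with the authors' own P and F values were not used. The 3 vehicle and 3 PLX3397 mice whose names share digits (J01B and J01, for example) did not deviate together and were not treated as pairs. Named genes were the members, of which some, and 1 promoter, are counted but not reported here by name, and among partner genes the 2 with the smallest adjusted p in each direction in vehicle versus sham, while the partner genes called in PLX3397+Anakinra versus vehicle were named after their values were seen. Intervals are 95% confidence intervals of the model. Alternatives are given in the closing section.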

Additional observations from a re-analysis of the deposited data

Results flagged for a closer look

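In each member and group the highest and lowest mouse were compared with the nearest other mouse by Dixon's test (95% level), and 5 of 180 sets were past the critical value, where chance gives about 1 in 20. Cacna1s was high in PLX3397 mouse J01, at 0.867 TPM beside 0.478 to 0.586 TPM in the other 4. Cacnb3 was low in Anakinra mouse J21, at 84.1 TPM beside 101 to 107 TPM, and Cacng7 was low in the same mouse, at 116 TPM beside 131 to 134 TPM. Scn2a1 was high in PLX3397+Anakinra mouse J17, at 127 TPM beside 107 to 112 TPM. Scn3b was low in sham mouse J07, at 84.4 TPM beside 99.4 to 102 TPM.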

How the results depend on the processing

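Of 107 called differences of members, none changed direction except when expressed relative to the 12 neuron markers. There 47 reversed, which means a change of sign whether or not the new value was called, and some of these lay near 0. This scale shifts every gene of a comparison by the same amount, the mean difference of the markers. A change of sign thus says only that a gene moved less than the mean of the markers. In vehicle versus sham 85.3% of all genes were called higher on it, and the share of all genes that reversed was not counted. A further 38 kept the sign but lost the call, and 22 remained called. None of the 107 was lost with a pseudocount of 0.1, with a mean of at least 5 TPM (106 tested) or in the table rounded to 3 decimals. Without a log 3 were lost, after median-ratio rescaling 6, when only the compared groups were fitted 8 and without a filter on low values 13. Reversed log2 values against sham were, for vehicle, Cacna1b 0.064, Cacna1h 0.14, Cacna2d1 0.043, Cacna2d3 0.13, Cacnb1 0.0062, Cacnb2 0.13, Cacnb4 0.023, Cacng7 0.073, Cacng8 0.18, Scn2a1 0.061, Scn2b 0.13, Scn3b 0.19 and Scn4b 0.24. For PLX3397 they were Cacna1c 0.11, Cacna1d 0.10, Cacna2d3 0.078, Cacnb2 0.17, Cacng8 0.090, Scn2a1 0.043, Scn2b 0.053 and Scn3b 0.14. For Anakinra they were Cacna1c 0.30, Cacna1d 0.25, Cacna1e 0.19, Cacna1g 0.10, Cacna1h 0.11, Cacna2d3 0.12, Cacnb1 0.079, Cacnb2 0.18, Cacnb3 0.024, Cacng7 0.055, Cacng8 0.12, Scn2a1 0.0084, Scn2b 0.10, Scn3a 0.27, Scn3b 0.18 and Scn4b 0.24. For PLX3397+Anakinra they were Cacna1d 0.11, Cacna1g 0.011, Cacna1h 0.050, Cacnb1 0.043, Cacnb3 0.035, Cacng7 0.049, Scn2a1 0.015 and Scn2b 0.12. In PLX3397+Anakinra, Cacng7 came to -0.024 against vehicle and -0.0067 against Anakinra.

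By the criteria of the study, 0 members passed in vehicle, PLX3397, Anakinra and PLX3397+Anakinra versus sham and in PLX3397 versus vehicle, PLX3397+Anakinra versus vehicle and PLX3397+Anakinra versus Anakinra. The 2 members called in PLX3397 versus vehicle became 0 without a filter and 0 with only the compared groups. With a replicate block on the shared digits of 6 mice there was 1, and 1 without the block in the same mice, a fit chosen after seeing the data (correlations of the deviations 0.17, -0.13 and -0.07 in the 3 pairs). The 10 of PLX3397+Anakinra versus vehicle became 4 without a filter, 2 relative to neuron markers and 6 with only the compared groups. The 4 of PLX3397+Anakinra versus Anakinra became 1 relative to neuron markers and 8 with only the compared groups. The cause was not tested. Leaving out 1 mouse at a time gave 0 to 3 members in PLX3397 versus vehicle, 3 to 13 in PLX3397+Anakinra versus vehicle and 2 to 10 in PLX3397+Anakinra versus Anakinra, and 21 to 24, 21 to 23, 23 to 27 and 17 to 20 in vehicle, PLX3397, Anakinra and PLX3397+Anakinra versus sham. Where it left a group with fewer mice, the spread was that of all groups. Depth is unknown, and genes near 1 TPM carry the widest intervals.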
